A study of Mus musculus with 12 samples.

Results

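The 10 genes described here mark the liver sinusoidal endothelium, and they were chosen by name: Lyve1, Stab1, Stab2, Kdr, Pecam1, Cdh5, Tek, Clec4g, Fcgr2b and Oit3. All 10 were found in the table, with 25 of its 26260 transcripts, and they are 10 of its 11587 genes. The value of a gene is the mean over its transcripts. Liver was taken from 3 Maf1 KO mice (KO1, KO2 and KO4) and 3 wild-type mice (WT1, WT2 and WT3), all C57BL/6 animals aged 12 to 14 weeks per the labels, which call them refed, whereas the study's methods say that they were fed ad libitum. Each liver gave 1 library of ribosome footprints, the stretches of mRNA that ribosomes protect from RNase I, and 1 library of total RNA fragments, 12 libraries in all. The genotype was not checked in these values, since Maf1 is not analysed here. The KO label names no Cre driver or cell type, and the paper describes its mice as completely lacking MAF1. Whole liver was lysed, so fewer endothelial cells and less RNA per cell cannot be told apart in any value below.

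Sinusoidal endothelial cells line the blood channels of the liver. They carry open pores and lack a continuous basement membrane, so plasma reaches the hepatocytes, and they clear waste macromolecules and small immune complexes from blood by receptor-mediated uptake. The scavenging receptors among the 10 genes are Stab1 and Stab2, the stabilins, large receptors for hyaluronan and other ligands (Stab2) and for modified proteins, Lyve1, a hyaluronan receptor first known from lymphatic vessels, Clec4g, a C-type lectin, and Fcgr2b, the inhibitory receptor for IgG. Kdr, the VEGF receptor 2, and Tek, the angiopoietin receptor Tie2, are receptor tyrosine kinases. Pecam1 and Cdh5, the vascular cadherin, hold endothelial cells together at their junctions. Oit3 encodes a zona pellucida domain protein. Macrophages also express Lyve1, Stab1 and Fcgr2b, and blood cells also express Pecam1. Stretches of Fcgr2b closely resemble Fcgr3, a neighbouring Fc receptor gene, so tags of the 2 genes could have been split between them.

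Several results below turn on the footprint signal relative to total RNA, a density along the coding sequence and not a number of ribosomes per mRNA. The sequences around the start codon are shown for the 3 genes with the highest and the 2 with the lowest value of it. Each line gives 10 bases before the start codon, the start codon in capitals and 11 bases after it, from GENCODE vM1 on NCBIM37.
Lyve1 (chromosome 7, minus strand, start codon 118006380 to 118006382): gatctgcacaATGctccagcacac
Oit3 (chromosome 10, minus strand, 58904429 to 58904431): gatcagaacgATGcctctgtccct
Cdh5 (chromosome 8, plus strand, 106636799 to 106636801): tccacgaaggATGcagaggctcac
Stab2 (chromosome 10, minus strand, 86470624 to 86470626): ggagcctggcATGgcaaggagcaa
Tek (chromosome 4, plus strand, 94406332 to 94406334): ctggggaagtATGgactctttagc
A purine 3 bases before the start codon is part of the context that vertebrate ribosomes are known to favour, as is a G directly after it. The purine was present in 8 of the 9 genes with a usable transcript, Fcgr2b being the exception, against 86.0% of 10640 genes. The G was present in 5 of the 9 against 53.0% of all genes. Stab1, Stab2, Tek, Kdr and Fcgr2b held the G, and Lyve1, Oit3, Cdh5 and Pecam1 lacked it. Clec4g had too few annotated bases before its start codon.

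The values are scores, the log2 of tag numbers normalized by the authors, and they behave as tags per coding length, so levels of different genes can be set side by side. Library medians over all genes ran from 8.75 to 9.34 in total RNA, highest in KO1, and from 7.17 to 8.02 in footprints, highest in WT3 and lowest in KO1. Depth was estimated from the steps between low values, at 34.6 to 58.9 Mtags (megatags) per total RNA library and 27.4 to 72.8 Mtags per footprint library. Because these medians differ, each comparison is given as deposited and with every library's median set to 0, called centred. Centring also removes any shift that all genes of a library share. The paper reports a general decrease in ribosome occupancy in Maf1 KO liver from its spiked libraries, and centred values cannot show such a decrease.

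Clec4g was by far the most abundant of the 10 mRNAs. Its total RNA score was 12.64 in KO1, 12.05 in KO2, 11.84 in KO4, 11.89 in WT1, 11.93 in WT2 and 11.78 in WT3, between the 89.6th and the 92.6th percentile of all genes in each library. Its footprint score was 11.39, 11.59, 11.48, 11.35, 11.01 and 11.92 in the same order of mice. Fcgr2b followed with total RNA scores of 11.21, 10.84, 10.48, 10.77, 10.87 and 10.44 and footprint scores of 10.08, 10.59, 10.35, 10.00, 10.41 and 10.99. The mean gap between the 2 genes was 1.25 ± 0.14 (SD, n = 6 mice) in total RNA, and every mouse showed it.

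The stabilins and Kdr came next. The total RNA score of Stab2 was 10.74, 10.38 and 9.98 in KO1, KO2 and KO4, and 10.27, 10.25 and 10.03 in WT1, WT2 and WT3. The score of Kdr was 10.54, 10.09 and 10.07 in the KO mice and 10.19, 10.32 and 10.07 in the wild-type mice. Stab2 stood above Kdr in 3 of 6 mice, and the 2 did not differ beyond their spread (mean gap 0.06 ± 0.16, adjusted p = 0.5625 by the exact sign-flip permutation test). Stab1, the paralogue of Stab2, reached 10.46, 9.88 and 9.44 in the KO mice and 9.98, 9.81 and 9.53 in the wild-type mice.

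Cdh5 and Oit3 stood with Stab1 in the middle. The total RNA score of Cdh5 was 10.25, 9.96 and 9.60 in the KO mice and 9.52, 9.87 and 9.46 in the wild-type mice, and that of Oit3 was 10.30, 9.61 and 9.48 against 9.70, 9.90 and 9.64. Stab1, Cdh5 and Oit3 could not be ranked, with gaps of 0.07 ± 0.23 and 0.01 ± 0.20 between neighbours. Pecam1 lay lower at 9.39, 8.96 and 8.95 in the KO mice and 9.08, 9.16 and 8.92 in the wild-type mice, close to the median gene of each library. Tek followed at 8.86, 8.39 and 8.29 against 8.73, 8.53 and 8.49.

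Lyve1 was the least abundant mRNA and the most variable. Its total RNA score was 7.67, 8.25 and 7.37 in KO1, KO2 and KO4, and 7.05, 8.12 and 7.45 in WT1, WT2 and WT3, so KO2 and WT2 stood above the other 4 mice. It rests on an estimated 94 to 195 tags per library, for which counting alone gives an SD of up to 0.15 on the log2 scale, whereas Stab2 rests on 5978 to 8516 tags. In total RNA, 6 of the 9 neighbour pairs of the order differed, each in 6 of 6 mice and with an adjusted p of 0.0469 by the exact sign-flip permutation test over mice. An unadjusted p of 0.03125 is the smallest that 6 mice can give.

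**Figure D1:**
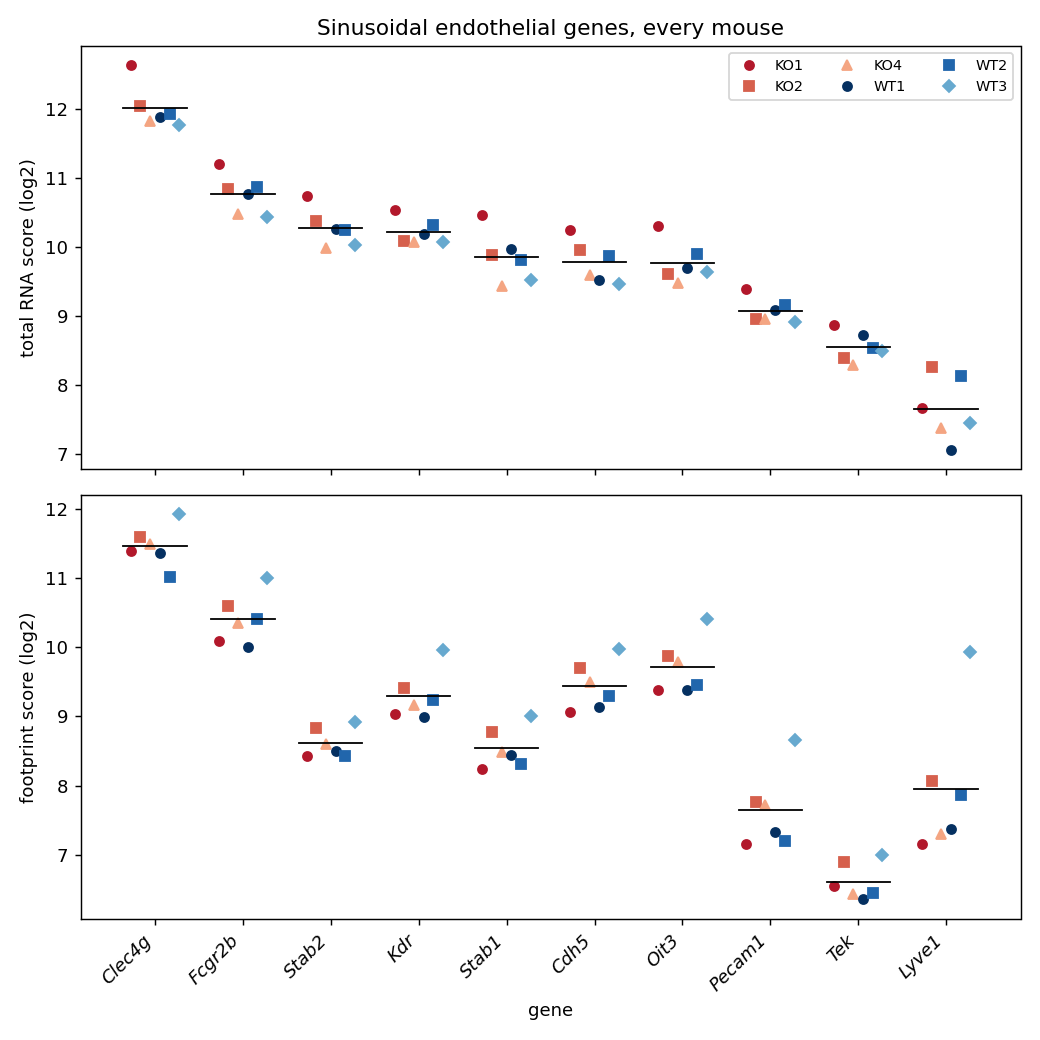
Total RNA score (upper panel) and footprint score (lower panel) of the 10 genes on a log2 scale, with 1 point per mouse and the mean of 6 mice as a bar. KO1 is highest in total RNA for 9 of 10 genes, WT3 is highest in footprints for 10 of 10, and the Lyve1 footprint score of WT3 (9.94) stands far above the others.

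The order of the genes in footprints was not that of total RNA. Clec4g and Fcgr2b still led. Oit3, seventh by its mean in total RNA but not ranked apart from Stab1 and Cdh5 there, held the third place here. Its footprint scores were 9.38, 9.87 and 9.79 in the KO mice and 9.38, 9.46 and 10.40 in the wild-type mice. Cdh5 came next at 9.06, 9.70 and 9.50 against 9.13, 9.30 and 9.97, and then Kdr at 9.03, 9.40 and 9.17 against 8.98, 9.24 and 9.95. Stab2, at the third place in total RNA, held the sixth, at 8.42, 8.82 and 8.60 in the KO mice and 8.50, 8.42 and 8.92 in the wild-type mice.

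Stab1 lay at 8.23, 8.78 and 8.48 in the KO mice and 8.45, 8.31 and 9.01 in the wild-type mice. Pecam1 lay at 7.16, 7.77 and 7.72 against 7.33, 7.21 and 8.67, and Tek was lowest at 6.55, 6.90 and 6.43 against 6.36, 6.46 and 7.0. In footprints, 6 of the 9 neighbour pairs differed (adjusted p = 0.0469 each, exact sign-flip permutation test), and 0 of 9 did in the order of scores not taken per coding length. The pairs Stab2 and Stab1, Stab1 and Lyve1, and Lyve1 and Pecam1 did not, the last with a mean gap of 0.30 ± 0.59.

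Translation efficiency was taken per mouse as the log2 difference between its footprint and its total RNA score. It was centred on the median gene of each mouse, so that 0 is the median gene. Of the 10 genes, 6 lay above the median gene (limma, adjusted p under 0.05 over all 11587 genes) and 2 below, against 37.3% and 37.7% of all genes. A call on either side was thus common in these libraries, and 8 of 10 is close to the share of all genes.

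Lyve1 had the highest mean at 1.59 ± 0.23 (SE, n = 6 mice, limma adjusted p = 0.000258). The SD was 0.34 in the KO mice and 1.00 in the wild-type mice. This SE, pooled in part over genes, is thus too small for Lyve1. Its values were 1.51, 0.85 and 1.06 in the KO mice and 1.81, 1.17 and 3.13 in the wild-type mice, above 0 in every mouse and highest in WT3. Oit3 followed at 1.23 ± 0.11, with values from 0.99 to 1.44. Lyve1 stood above Oit3 in 4 of 6 mice, and in the KO mice the mean of Lyve1 was 1.14 against 1.28 for Oit3. Cdh5 had 0.96 ± 0.10, from 0.78 to 1.15.

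Fcgr2b lay at 0.93 ± 0.10 and Clec4g at 0.73 ± 0.10, and Kdr at 0.37 ± 0.09 was the lowest of the genes above the median. Each of these 6 genes was above 0 in 6 of 6 mice. Tek was lowest at -0.64 ± 0.10 (limma adjusted p = 0.00041), with values from -0.89 to -0.30, and Stab2 lay at -0.37 ± 0.09 (limma adjusted p = 0.00532), from -0.51 to -0.25. Both were below 0 in 6 of 6 mice.

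Stab1 at -0.02 ± 0.09 and Pecam1 at -0.14 ± 0.12 did not differ from the median gene. Pecam1 was below 0 in 5 mice and at 0.38 in WT3, and without WT3 it passed at -0.27. No neighbour pair in the order of translation efficiency passed the exact sign-flip permutation test, whose smallest adjusted p was 0.0938. Oit3 and Cdh5, Clec4g and Kdr, and Kdr and Stab1 kept their order in 6 of 6 mice. A pair at the smallest p passes only if enough other pairs reach it too, so the test could not decide these pairs. The stabilins, which have similar coding lengths, thus lay at or below the median gene, and the other 3 scavenging receptors above it.

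**Figure D2:**
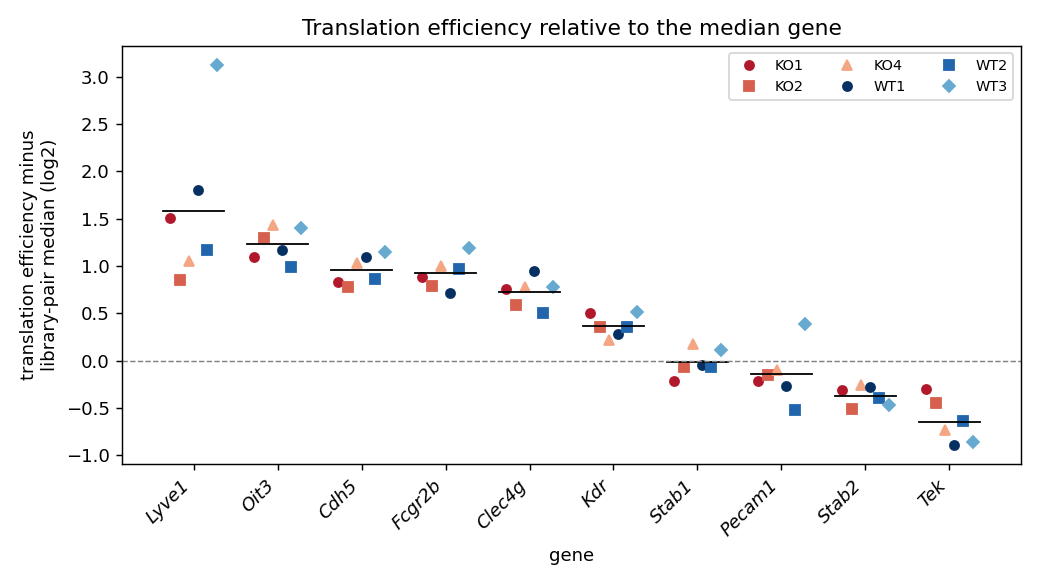
Translation efficiency of the 10 genes relative to the median gene of each mouse (log2), with 1 point per mouse, the mean of 6 mice as a bar and the median gene as a dashed line. Lyve1, Oit3, Cdh5, Fcgr2b, Clec4g and Kdr lie above the line in every mouse, Stab2 and Tek below it in every mouse.

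Coding length moved with this measure. Lyve1 has a coding sequence of 954 nucleotides, Clec4g 882, Fcgr2b 1020 and Oit3 1638, whereas Tek has 3369, Stab2 7677 and Stab1 7713. Over the 10 genes, Pearson's r between translation efficiency and log2 coding length was -0.73 (Spearman's rho -0.62), and without Lyve1 it was -0.66. Over 10851 genes with a coding length r was -0.45 (rho -0.48). Genes share libraries and are not independent replicates, so these are descriptions. Cdh5, with 2352 nucleotides, and Pecam1, with 2196, have similar lengths and lay at 0.96 and -0.14. The part of length in the differences between genes was not tested.

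**Figure D3:**
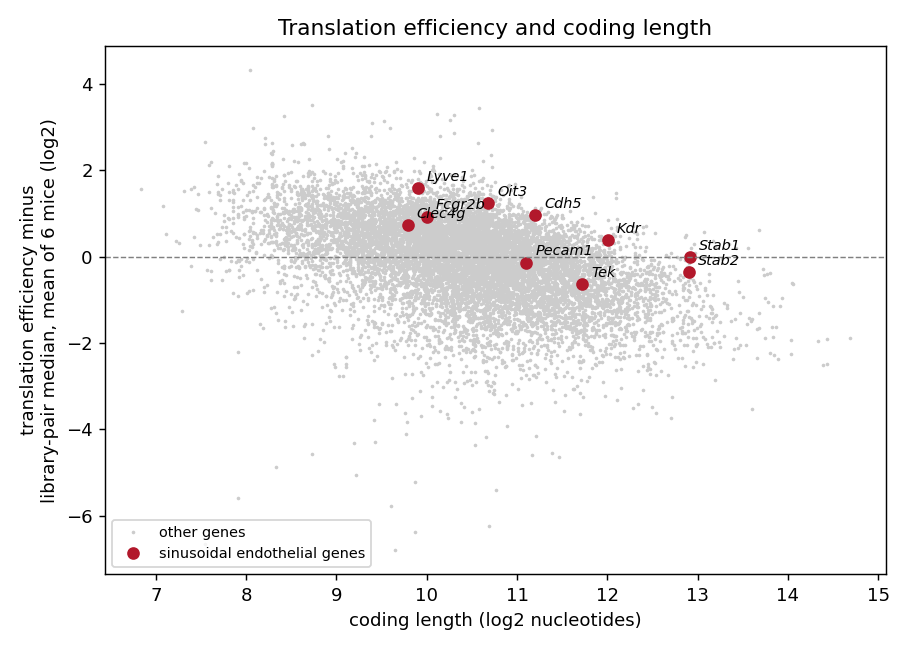
Translation efficiency relative to the median gene (log2, mean of 6 mice) against coding length (log2 nucleotides) for 10851 genes, with the 10 endothelial genes in red. The red points range from 1.59 for Lyve1 to -0.64 for Tek and tend to fall with length, as do the grey points. Clec4g, the shortest of the 10, lies at 0.73 and Stab1, the longest, at -0.02.

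The comparison of the genotypes asked whether loss of Maf1 changed the 10 genes in total RNA or footprints, or in the ratio of both. No gene of the 10 passed in any of the 3 (limma, adjusted p under 0.05 over all genes, as deposited and centred), where 0.276% of all genes passed for total RNA, 0.0863% for footprints and 0.0173% for translation efficiency. As deposited, at an unadjusted p under 0.05, limma gave 0 of the 10 for total RNA, 1 (Lyve1) for footprints and 0 for translation efficiency, where 3.61%, 2.49% and 1.03% of all genes reached it. Centred, it gave 1 (Clec4g), 0 and 0 of the 10, where 8.48%, 4.0% and 3.03% of all genes reached it. On data simulated on the deposited scale with these spreads, a log2 change of 1 was called for 68% of genes with total RNA. It was called for 31% with footprints and 0% with translation efficiency, with 3 mice per genotype. The centred scale was not simulated.

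In total RNA, 9 of the 10 differences between Maf1 KO and wild-type were above 0, with a median of 0.15 beside 0.00 over all genes. The largest was that of Cdh5 at 0.32 ± 0.27 (SE, limma adjusted p = 0.9995), and that of Clec4g was 0.31 ± 0.25. Lyve1 had 0.22 ± 0.30, Stab2 0.19 ± 0.26, Stab1 0.15 ± 0.26 and Fcgr2b 0.15 ± 0.26. Oit3, Pecam1 and Kdr had 0.05, 0.05 and 0.04, and Tek alone lay below 0 at -0.07 ± 0.28. No gene had KO and wild-type values that did not overlap, against 5.5% of all genes. The sign depended on the mice included. Without KO1, 4 of the 10 differences were above 0 and their median was -0.07 beside -0.17 over all genes. Without WT3, 6 were above 0 with a median of 0.03 beside -0.06 over all genes.

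Centred, the median over the 10 genes was 0.13 and 9 differences stayed above 0. Clec4g was then the only gene without overlap, at 3.30, 3.30 and 3.01 in the KO mice and 2.89, 2.90 and 2.95 in the wild-type mice. Its centred difference was 0.29 ± 0.12 (limma adjusted p = 0.5575), and 13.9% of all genes had no overlap on this scale. KO2 was the highest library for 7 of the 10 genes.

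In footprints, 7 of the 10 differences were below 0, with a median of -0.08 beside -0.18 over all genes. Centred, 8 of 10 were above 0 with a median of 0.11, so the direction followed the scale of the libraries. The deposited median was 0.05 without KO1, beside -0.04 over all genes, and 0.18 without WT3, beside 0.02. Apart from Lyve1 the differences ran from -0.19 for Kdr to 0.06 for Clec4g. Groups overlapped for each of the 10 genes on both scales, against 5.7% of all genes without overlap as deposited and 9.1% centred.

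Lyve1 had the largest footprint difference at -0.88 ± 0.35 (limma adjusted p = 0.9995), the 1 gene with an unadjusted p under 0.05. The SD of its scores was 0.48 in the KO mice and 1.36 in the wild-type mice. This SE, pooled over genes, is thus too small for Lyve1. Its scores were 7.16, 8.06 and 7.30 in KO1, KO2 and KO4, and 7.37, 7.86 and 9.94 in WT1, WT2 and WT3. WT3 alone stood apart, and the other 2 wild-type mice lay within the range of the KO mice. Without WT3 the difference was -0.11. Centred, the difference was -0.69 ± 0.44, and Lyve1 in WT3 lay 1.42 above the next mouse, a 2.68-fold gap, and 17 of 11587 genes showed a gap at least as large in that library, against 1 to 7 genes in each other footprint library. The score of WT3 in total RNA was not raised (7.45).

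Translation efficiency differed between the genotypes by -0.24 in the median of the 10 genes, beside -0.19 over all genes, and 9 of 10 differences were below 0. Lyve1 had the largest at -1.11 ± 0.67 (limma adjusted p = 1), and without WT3 it was -0.29. Tek had the only one above 0, at 0.09 ± 0.51. Centred, the median was -0.03 and 3 of 10 were above 0. Without KO1 and WT3, the 2 mice that stood apart in their library medians, the median was 0.39 beside 0.40 over all genes, and without KO1 or WT3 alone it was 0.07 and 0.10, beside 0.12 and 0.08.

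**Figure D4:**
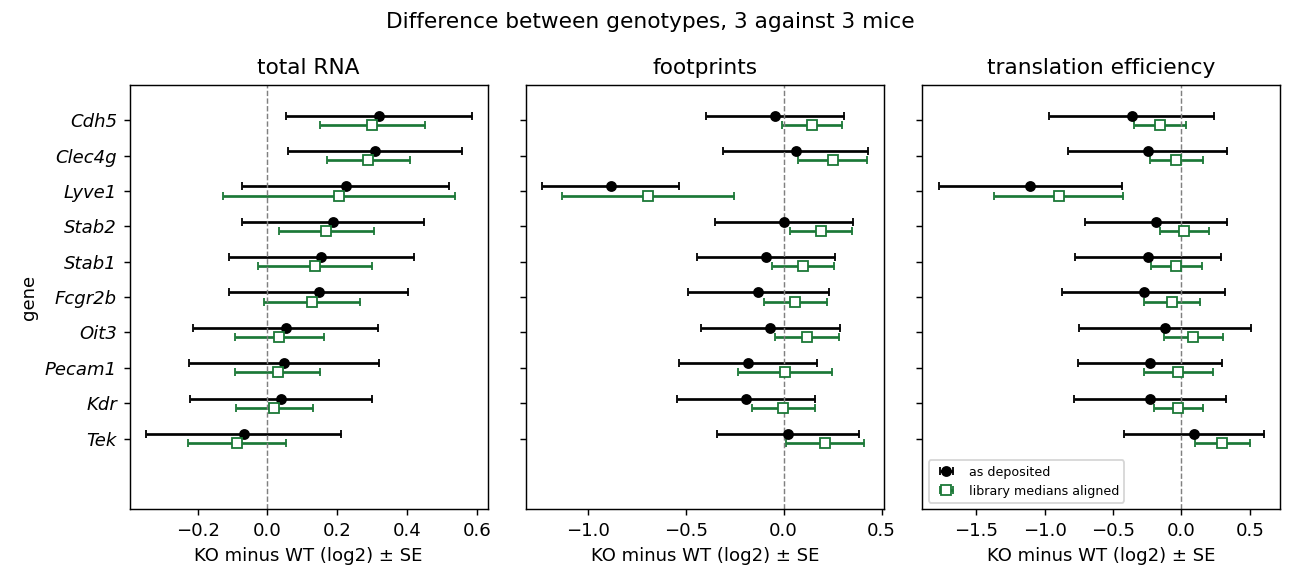
Difference between Maf1 KO and wild-type (log2, limma estimate ± SE, 3 against 3 mice) of the 10 genes in total RNA, footprints and translation efficiency. Filled circles are values as deposited and open squares are centred values, and no gene passed the threshold on either scale.

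The transcripts of a gene moved together. For Tek, Pecam1 and Kdr, mean total RNA scores of the transcripts lay within 0.03, 0.13 and 0.08 of each other. The widest range was that of Stab2, whose 3 transcripts ran from 10.02 to 10.43 in total RNA and from 8.23 to 8.83 in footprints, and the lowest in both was the transcript without a RefSeq accession. Differences between the genotypes in total RNA varied among the transcripts of a gene by at most 0.11, in Stab1. Most tags are shared by the transcripts of a gene, so they are no independent measurements.

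Other genes of the same cells and pathways were read from 6 lists. Of 19 measured scavenging and identity genes of these cells beyond the 10, none passed in any of the 3 comparisons. Total RNA differences of 14 were above 0 with a median of 0.08, and Mrc1, the mannose receptor, had 0.13 ± 0.26 and Dnase1l3, a secreted DNase, 0.18 ± 0.25. Translation efficiency relative to the median gene was higher for 12 of these 19 and lower for 3 (37.3% and 37.7% of all genes), from -0.98 for Bmp2 to 1.82 for the water channel Aqp1.

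None of 13 genes of VEGF and angiopoietin signalling passed, the pathways of Kdr and Tek, and their median in total RNA was -0.01. The ligands Vegfa and Vegfb had -0.08 ± 0.25 and 0.38 ± 0.28. Against the median gene in translation efficiency, 2 of the 13 were higher and 5 lower (37.3% and 37.7% of all genes). None of 17 adhesion and junction genes passed, with a median of 0.03, Cldn5 at -0.29 ± 0.28 and Esam at 0.26 ± 0.29. In translation efficiency relative to the median gene, 13 of these 17 were higher and 1 was lower (37.3% and 37.7% of all genes), the lowest being Egfl7 at -1.94.

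Of 18 genes of BMP, Notch and Wnt signals none passed, with a median of 0.12 in total RNA, Bmp2 at 0.33 ± 0.27 and Bmp6 at 0.18 ± 0.32, and in translation efficiency 6 were higher than the median gene and 10 lower. None of 14 endothelial transcription factors passed, with 12 above 0 and a median of 0.18, Gata4 at 0.12 ± 0.29 and Erg at 0.27 ± 0.30, and in translation efficiency 7 were higher and 1 lower. None of 16 ligands, partners and uptake genes passed, with a median of 0.09, Sparc, a ligand of Stab1, at 0.40 ± 0.26 and Pdgfb at -0.23 ± 0.35, and in translation efficiency 8 were higher and 3 lower. Over all genes, 37.3% were higher and 37.7% lower in translation efficiency. The lists overlap in a few genes.

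Markers of other liver cells were read in the same way. In translation efficiency, 14 of 19 Kupffer cell and macrophage markers were higher than the median gene and 1 lower. For stellate cell and fibroblast markers it was 14 and 0 of 15, and for hepatocyte markers 13 and 0 of 14. Platelet, erythroid and neutrophil markers gave 3 and 1 of 4, cholangiocyte markers 2 and 0 of 2, lymphocyte markers 1 and 1 of 2. Over all genes 37.3% were higher and 37.7% lower, so high values were not particular to endothelial genes. In total RNA, all 19 measured Kupffer cell and macrophage markers lay above 0 with a median of 0.52, and Marco, a scavenger receptor of macrophages, rose by 2.21 ± 0.28 (limma adjusted p = 4.0e-11), the only gene of any list to pass. Centred, Marco had 2.19 ± 0.42 and did not pass (limma adjusted p = 0.1951). The summed total RNA level of the 19 markers, in multiples of the median gene, was 91.7 to 121.3 in the KO mice and 80.1 to 83.2 in the wild-type mice. That of the 10 endothelial genes was 22.7 to 28.6 and 22.6 to 23.4. In footprints 17 of the 19 lay above 0, with a median of 0.36 and no call. Their summed footprint levels overlapped, at 147.9 to 195.7 in the KO mice and 124.2 to 169.5 in the wild-type mice. The part of macrophages in the values of Lyve1, Stab1 and Fcgr2b was not tested.

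Of 15 stellate cell and fibroblast markers 13 lay above 0 with a median of 0.22, and the summed level was 24.3 to 31.1 in the KO mice and 21.8 to 26.0 in the wild-type mice. The 14 measured hepatocyte markers had a median of 0.09, with Alb, the gene of albumin, at 0.15 ± 0.25, and their summed level of 5214 to 8976 marked the tissue as liver. Of platelet, erythroid and neutrophil markers 4 of 12 were measured and all were below 0, with Pf4, a platelet chemokine, at -1.10 ± 0.34 and Itga2b at -0.16 ± 0.36. Only 2 of 8 cholangiocyte markers (Sox9 and Spp1) and 2 of 12 lymphocyte markers (Ptprc and Cd4) were in the table. None of these passed, and no measured marker of these lists was at 0.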

How the data were processed

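Liver extracts of 3 Maf1 KO and 3 wild-type mice were spun at 3000 rpm and mixed with extract of Drosophila S2 cells (1 part to 15). According to the methods of the study, tags were aligned by the authors to dm6 and mm9, who removed tags common to both, kept those on coding sequences, and normalized with TMM (edgeR) and a fly factor. The name of the aligner is not stated in the sources used here. Log2 values per transcript were deposited by the authors, under a header that is silent on the fly factor. Multiplied by coding length, 66.4% to 81.2% of low values fell on whole steps (tolerance 0.1), against 31.3% to 45.2% without it, so the scores were read as per coding length and no count test was run. Tag numbers are estimates from these steps, and errors from them cover counting only.

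Differences were fitted with limma 3.58.1 (R 4.3.3, eBayes with trend, genotype as the only term, Benjamini-Hochberg over 11587 genes at 0.05). Prior degrees of freedom were infinite on the deposited scale, so genes more variable than most got standard errors that are too small. In the simulation 200 of 11587 genes were changed. Of the unchanged genes, 52, 52 and 20 were called in total RNA, footprints and translation efficiency. In the real data, 32, 10 and 2 genes were called, fewer than these, so the simulation does not match the data in full. Neighbours in the order of levels were compared within mice by an exact two-sided sign-flip permutation test, adjusted over the 9 pairs. Replicates are mice. All 10 genes are named, with the first 2 measured genes of each list or those that passed, and extremes of a list were named after their values were seen. The genes and lists were chosen with earlier results of these data known. Start codons came from the longest GENCODE vM1 coding transcript with at least 10 bases before it (Python 3.11.15).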

Additional observations from a re-analysis of the deposited data

How the results depend on the processing

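None of the 10 genes passed in total RNA, footprints or translation efficiency under any alternative tried, nor at an adjusted p under 0.1. Directions of the differences that did not pass were less stable. The following changed sign, and the cause was not tested. With each library centred they were in footprints 0.10 for Stab1, 0.0069 for Pecam1, 0.14 for Cdh5, 0.060 for Fcgr2b and 0.12 for Oit3, as well as in translation efficiency 0.022 for Stab2 and 0.087 for Oit3. With quantile normalization they were in footprints 0.12 for Stab1, 0.020 for Kdr, 0.18 for Cdh5, 0.12 for Fcgr2b and 0.17 for Oit3, as well as in translation efficiency 0.0090 for Stab2 and 0.097 for Oit3. Without KO1 and WT3 they were in total RNA -0.23 for Stab1, -0.075 for Stab2, -0.17 for Kdr, -0.16 for Pecam1, -0.16 for Fcgr2b and -0.25 for Oit3, as well as in footprints 0.065 for Lyve1, 0.25 for Stab1, 0.17 for Kdr, 0.48 for Pecam1, 0.39 for Cdh5, 0.26 for Fcgr2b and 0.41 for Oit3, as well as in translation efficiency 0.49 for Stab1, 0.33 for Stab2, 0.35 for Kdr, 0.64 for Pecam1, 0.30 for Cdh5, 0.33 for Clec4g, 0.43 for Fcgr2b and 0.66 for Oit3. Without both mice and centred they were in total RNA -0.0046 for Stab1 and -0.022 for Oit3, as well as in footprints 0.11 for Stab1, 0.032 for Kdr, 0.34 for Pecam1, 0.24 for Cdh5, 0.12 for Fcgr2b and 0.27 for Oit3, as well as in translation efficiency 0.11 for Stab1, 0.27 for Pecam1, 0.054 for Fcgr2b and 0.29 for Oit3. The median over the 10 genes without KO1 and WT3 was -0.16 in total RNA, 0.26 in footprints and 0.39 in their difference. With the highest transcript per gene, Stab2 in footprints was -0.025. Leaving out each mouse in turn, the differences ran in total RNA -0.020 to 0.52 for Lyve1, -0.11 to 0.40 for Stab1, -0.12 to 0.12 for Kdr, -0.098 to 0.12 for Pecam1, -0.24 to 0.044 for Tek, -0.037 to 0.33 for Fcgr2b and -0.20 to 0.21 for Oit3. They ran in footprints -0.23 to 0.12 for Stab1, -0.10 to 0.16 for Stab2, -0.39 to 0.090 for Kdr, -0.45 to 0.28 for Pecam1, -0.21 to 0.21 for Cdh5, -0.11 to 0.22 for Tek, -0.15 to 0.31 for Clec4g, -0.36 to 0.13 for Fcgr2b and -0.25 to 0.26 for Oit3. They ran in translation efficiency -0.48 to 0.15 for Stab1, -0.37 to 0.097 for Stab2, -0.43 to 0.11 for Kdr, -0.55 to 0.30 for Pecam1, -0.11 to 0.34 for Tek, -0.49 to 0.045 for Clec4g, -0.55 to 0.11 for Fcgr2b and -0.34 to 0.28 for Oit3.

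Replicate numbers 1 and 2 name different animals in each genotype, and whether mice of the same number share a batch was not tested. Deviations of same-number mice correlated at 0.23 and 0.27 in total RNA and at -0.061 and 0.097 in footprints. Mice of different numbers were not compared in this way, so these values cannot decide the question. The replicate block leaves KO4 and WT3 no weight in the difference. With it, the differences that changed sign were in footprints 0.13 for Stab1, 0.11 for Kdr, 0.20 for Pecam1, 0.17 for Cdh5, 0.13 for Fcgr2b and 0.20 for Oit3, as well as in translation efficiency 0.048 for Kdr, 0.14 for Pecam1 and 0.049 for Oit3. None of the 10 was called, and calls over all genes went from 32 to 9 in total RNA, from 10 to 292 in footprints, and for translation efficiency from 2 to 3.

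Of the genes set against the median gene, 8 passed, and 5 did with translation efficiency not centred, where the 0 has no meaning across libraries: Kdr was then -0.92, Cdh5 -0.33, Clec4g -0.56, Fcgr2b -0.37 and Oit3 -0.058. Stab1 was 0.15 with its highest transcript, 0.024 with the replicate block and -0.067 to 0.029 leaving out each mouse. Without genes below the 0.25 quantile of scores, Kdr no longer passed (0.21) and Pecam1 did (-0.31). Of the 9 neighbour pairs in footprints, 0 passed with scores not per coding length, where fewer than 6 pairs reached the smallest p that 6 mice allow. With each library centred, calls over all genes were 2, 0 and 0. Lyve1 and Tek footprints rest on the fewest tags, from 116 and 224 per library, and an n of 3 limits each genotype comparison.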
